A study of Mus musculus with 11 samples.

Results

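The miR-181 family was followed in mouse embryonic stem cells with different forms of DGCR8, from sequenced small RNA. The members were taken by name from the table of mature miRNAs: mmu-miR-181a-5p, mmu-miR-181b-5p, mmu-miR-181c-5p, mmu-miR-181c-3p and mmu-miR-181d-5p, 5 of 1966 miRNAs listed. The mouse prefix mmu is left out of names after this. All 5 passed the filter on low counts, as did 730 miRNAs in all. The libraries fell into 5 groups. Induced E518K cells (3 libraries, clones 8, 13 and 15) carried the genotype label DGCR8 E518K/E518K and had been transfected with pCMV(CAT)-SB100X together with the vector pSB ET iE-FlagDGCR8-E518K. The KO (3 libraries, label DGCR8 -/-) was not transfected and received doxycycline too. Induced wild-type cells (3 libraries, clones 10, 12 and 16) carried the label DGCR8 wt/wt and had been transfected with pCMV(CAT)-SB100X and pSB ET iE-FlagDGCR8-wt. Doxycycline was given at 300 ng/mL for 48 h in these groups. Untreated E518K (clone 8) and untreated wild type (clone 10) had 1 library each and show the levels without doxycycline. All cells had the same strain label, NBA1-19349 of Novus Biochemicals, and all 3 KO libraries carried the name of the same clone, 261, so nothing here measures how KO clones vary; where no label says that libraries came from separate cultures, p-values cover only the spread between these libraries, which may be technical. In such bulk samples, fewer cells with a miRNA and less of it per cell cannot be told apart.

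DGCR8 binds the hairpins of primary miRNA transcripts and, with the nuclease Drosha, forms the microprocessor that cuts them free. Dicer then removes the loop, and either arm of the hairpin (5p or 3p) can be kept as the mature miRNA. E518K is a change in DGCR8 that recurs in Wilms tumours, a childhood kidney cancer. The miR-181 family is best known from lymphocytes, where miR-181a tunes the strength of T-cell receptor signalling in mice. Its 5p miRNAs share their seed, the stretch near the 5′ end that pairs with target messengers.

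The mature sequences are shown because the family is built from nearly identical 5p strands that come from separate places in the genome. They are from RefSeq (GRCm38.p6), 5′ to 3′, and all 5 members matched by name. Capitals mark the seed, bases 2 to 8.
miR-181a-5p: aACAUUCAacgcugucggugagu
miR-181b-5p: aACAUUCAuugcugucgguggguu
miR-181c-5p: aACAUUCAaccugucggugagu
miR-181d-5p: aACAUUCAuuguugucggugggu
miR-181c-3p: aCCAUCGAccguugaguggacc
Among 1679 mature mouse miRNAs in that table, only these 4 5p miRNAs had the seed ACAUUCA. Counting from 1 at the 5′ end, miR-181a-5p and miR-181b-5p differed by A9U, C10U and A21G, with 1 base more at the 3′ end of miR-181b-5p. Between miR-181b-5p and miR-181d-5p the change was C12U, and miR-181d-5p was 1 base shorter. Removing position 11 of miR-181a-5p gives miR-181c-5p. The seed of miR-181c-3p, CCAUCGA, was shared with 1 other miRNA, miR-181a-1-3p.

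The family comes from 3 pairs of hairpins. Mir181c (chr8:84178873-84178961) and Mir181d (chr8:84178716-84178787) lie 85 bases apart on the minus strand, in an intron of Nanos3 in the GENCODE annotation. Mir181a-1 (chr1:137966455-137966541) and Mir181b-1 (chr1:137966639-137966718) lie 97 bases apart on the plus strand within the non-coding gene Gm4258 and overlap an exon of A430106G13Rik. Mir181a-2 (chr2:38852735-38852810) and Mir181b-2 (chr2:38853830-38853918) lie 1019 bases apart on the plus strand, opposite an intron of Nr6a1. Because miR-181a-5p and miR-181b-5p have the same sequence from chromosomes 1 and 2, their counts cannot be assigned to either place. miR-181c and miR-181d come from chromosome 8 alone. 3 hairpins are printed with both mature arms in capitals: the 2 sources of miR-181a-5p, whose 3p arms tell them apart, and the source of the most abundant member.
Mir181a-1: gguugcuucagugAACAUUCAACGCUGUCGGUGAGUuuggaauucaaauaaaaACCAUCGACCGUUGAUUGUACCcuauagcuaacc
Mir181a-2: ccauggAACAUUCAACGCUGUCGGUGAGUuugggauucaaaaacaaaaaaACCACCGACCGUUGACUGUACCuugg
Mir181d: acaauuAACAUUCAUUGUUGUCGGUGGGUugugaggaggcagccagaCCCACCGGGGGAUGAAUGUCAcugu
Between the mature arms these 3 hairpins had 17, 21 and 18 bases in the order printed. Their folding energies by RNAfold were −29.1, −28.8 and −27.1 kcal/mol.

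Total miRNA counts ran from 1050564 to 1797240 in induced E518K, from 166676 to 208846 in the KO and from 3394216 to 6128734 in induced wild type, with 264507 in untreated E518K and 1421247 in untreated wild type. Levels are given in CPM, on library sizes scaled by the trimmed mean of M values (TMM). A count of 0 allowed up to 3.93 to 6.04 CPM in induced E518K, 12.8 to 18.3 in the KO and 1.11 to 2.94 in induced wild type (a floor of 6 counts per library, counting error only). Of 8 miRNAs that mark embryonic stem cells, all had counts in induced E518K (2.77% to 3.98% of the miRNA counts) and in induced wild type (5.11% to 7.70%). In the KO 5 of 8 did (0.0198% to 0.0437%), but these markers need the microprocessor themselves. The 4 fibroblast markers held 0.114% to 0.158% in induced E518K, 0.999% to 1.41% in the KO and 0.198% to 0.289% in induced wild type. In counts these were 1617 to 2834, 1824 to 2354 and 9700 to 17138, so the KO share is one of a much smaller total. Whether fibroblasts were present was not tested. The 3 neuron markers held 0.105% to 0.151%, 0.0129% to 0.0168% and 0.214% to 0.45% in the same order. Muscle and liver markers held at most 0.0324% and 0.0177%, both in the KO. The 5 blood markers held 0.0219% to 0.0453% in induced E518K, 0.00591% to 0.0198% in the KO and 0.0104% to 0.0358% in induced wild type. They were listed for blood as a whole and not for lymphocytes. Their part in the miR-181 levels was not tested.

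miR-181d-5p was the most abundant member in induced wild-type and induced E518K cells, and the order of the others differed between the groups. In induced E518K, miR-181d-5p averaged 371 ± 24.2 CPM, miR-181c-3p 268 ± 61.5, miR-181a-5p 86.2 ± 35.2, miR-181c-5p 55.5 ± 18.6 and miR-181b-5p 11.3 ± 6.94 (SD, n = 3). The ranges of miR-181a-5p and miR-181c-5p overlapped in that group. In the KO the order was miR-181a-5p with 75.1 ± 60.1 CPM, miR-181b-5p with 53.8 ± 23.2, miR-181d-5p with 7.49 ± 4.17 and miR-181c-5p with 2.00 ± 3.47, while miR-181c-3p had 0 counts. miR-181a-5p and miR-181b-5p overlapped there, as did miR-181d-5p and miR-181c-5p, and miR-181a-5p and miR-181d-5p both had 4 counts in sample 3. In induced wild type, miR-181d-5p averaged 826 ± 96.2 CPM, miR-181c-3p 204 ± 8.40, miR-181c-5p 67.7 ± 14.2, miR-181a-5p 27.7 ± 5.94 and miR-181b-5p 20.4 ± 8.23, and only the last 2 overlapped.

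**Figure D1:**
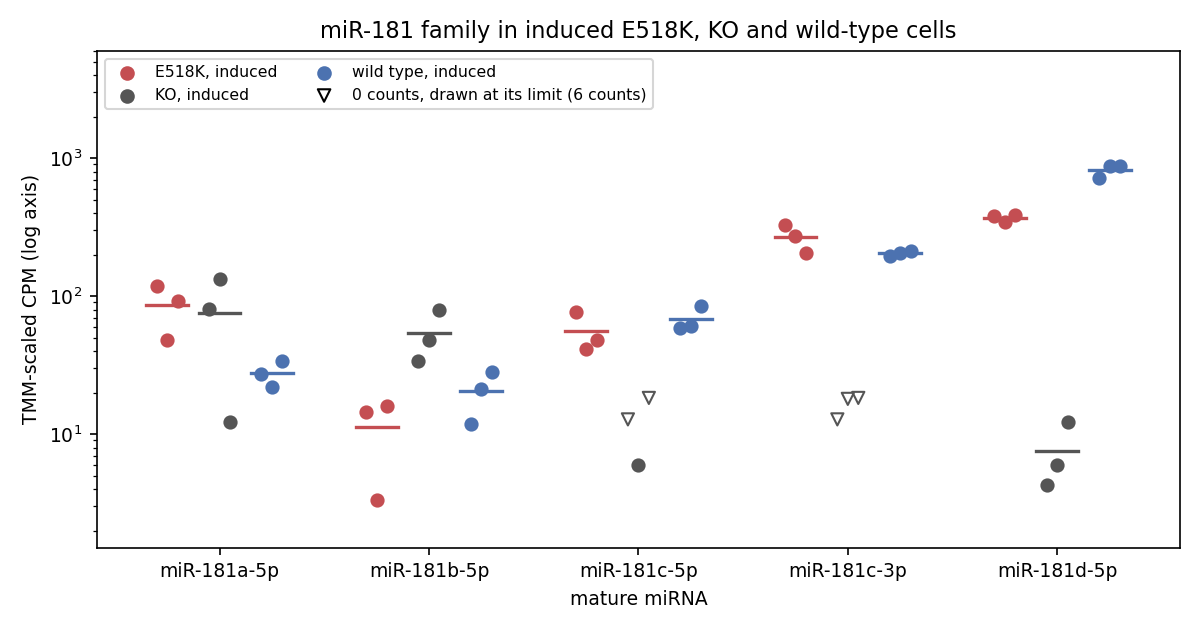
Level of each family member in TMM-scaled CPM (log axis) in every induced library, with E518K, KO and wild type side by side. Points are libraries, bars are means of groups in which every library had a count, and open triangles are libraries with 0 counts drawn at the level 6 counts would give. miR-181d-5p lay between 343 and 389 in E518K, between 4.26 and 12.2 in the KO and between 715 and 883 in wild type.

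The E518K cells were first set against wild-type cells, to see how the family fares with the mutant protein. miR-181a-5p rose and miR-181d-5p fell in induced E518K, while miR-181b-5p, miR-181c-5p and miR-181c-3p did not pass the test. That is 2 of 5 members called, where 63.6% of all 730 tested miRNAs were called in this comparison, 28.2% higher and 35.3% lower. Of the 730, that is 206 higher and 258 lower, against 280 and 178 without wild-type clone 16 and 12 and 498 with the microprocessor-independent list (12 miRNAs that bypass the microprocessor) as the scaling. The members' median log2 change was −0.28, against −0.14 over all tested miRNAs. Calls are those with a Benjamini-Hochberg adjusted p under 0.05 by edgeR's quasi-likelihood test over all tested miRNAs.

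miR-181d-5p, from the second hairpin of the chromosome 8 pair, had 381, 343 and 389 CPM in E518K clones 8, 13 and 15, against 715, 883 and 881 CPM in wild-type clones 10, 12 and 16. Every E518K library was below every wild-type library, where 64.5% of all tested miRNAs did not overlap between these groups. The log2 change was −1.16 ± 0.39 SE (adjusted p = 0.0062). Leaving out clone 16 of the wild type ended this call (−0.22, adjusted p = 0.68), and so did total counts as library sizes (−0.79, adjusted p = 0.13).

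miR-181a-5p, the member studied most in lymphocytes, had 118, 48.2 and 92.6 CPM in the E518K clones, against 27.5, 21.9 and 33.7 CPM in the wild-type clones. All E518K libraries were above all wild-type libraries, where 64.5% of all tested miRNAs did not overlap. The log2 change was 1.63 ± 0.48 SE (adjusted p = 0.0015), and it was 2.66 without wild-type clone 16. It did not pass with DESeq2 (1.42, adjusted p = 0.057), and with the microprocessor-independent list it turned to −1.13. That list held 0.902% to 1.63% of the miRNA counts in induced E518K and 0.104% to 0.180% in induced wild type.

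The arms of Mir181c did not pass. miR-181c-3p had 327, 273 and 204 CPM in the E518K clones, against 195, 206 and 211 CPM in the wild-type clones, which overlapped (log2 change 0.40 ± 0.40 SE, adjusted p = 0.39). Without wild-type clone 16 it was 1.26 and passed (adjusted p = 0.017). miR-181c-5p, its partner strand, had 76.5, 41.6 and 48.3 CPM in E518K, against 58.4, 60.7 and 84.1 CPM in wild type (−0.28 ± 0.47 SE, adjusted p = 0.60). miR-181b-5p had 14.4, 3.33 and 16.1 CPM in E518K, against 11.8, 21.2 and 28.2 CPM in wild type (−0.87 ± 0.53 SE, adjusted p = 0.14). Both overlapped between the groups.

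The sign of the change depended on the scaling for miR-181a-5p, miR-181c-3p and miR-181c-5p. For miR-181b-5p and miR-181d-5p it was negative under all 5 scalings. The median of all tested miRNAs was −0.14 with TMM, 0.21 with total counts and −0.29 with DESeq2 size factors. With the authors' scaling it was −0.19, and with the microprocessor-independent list −2.90. A change of scaling moves all miRNAs by nearly the same amount, so agreement relative to that median follows largely from subtracting it. The values below give a member's place among the tested miRNAs and are no check of the scaling. miR-181a-5p was 1.63 to 1.77 above the median under the 5 scalings and 1.57 to 1.96 above it with each library left out in turn. miR-181d-5p was −1.05 to −1.0 from it under the scalings and −1.13 to −0.93 with a library left out. miR-181c-3p stood at 0.50 to 0.60, miR-181c-5p at −0.24 to −0.14 and miR-181b-5p at −0.93 to −0.73 under the scalings. With a library left out they ran from 0.42 to 0.62, from −0.36 to 0.03 and from −1.11 to −0.4, in that order.

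**Figure D2:**
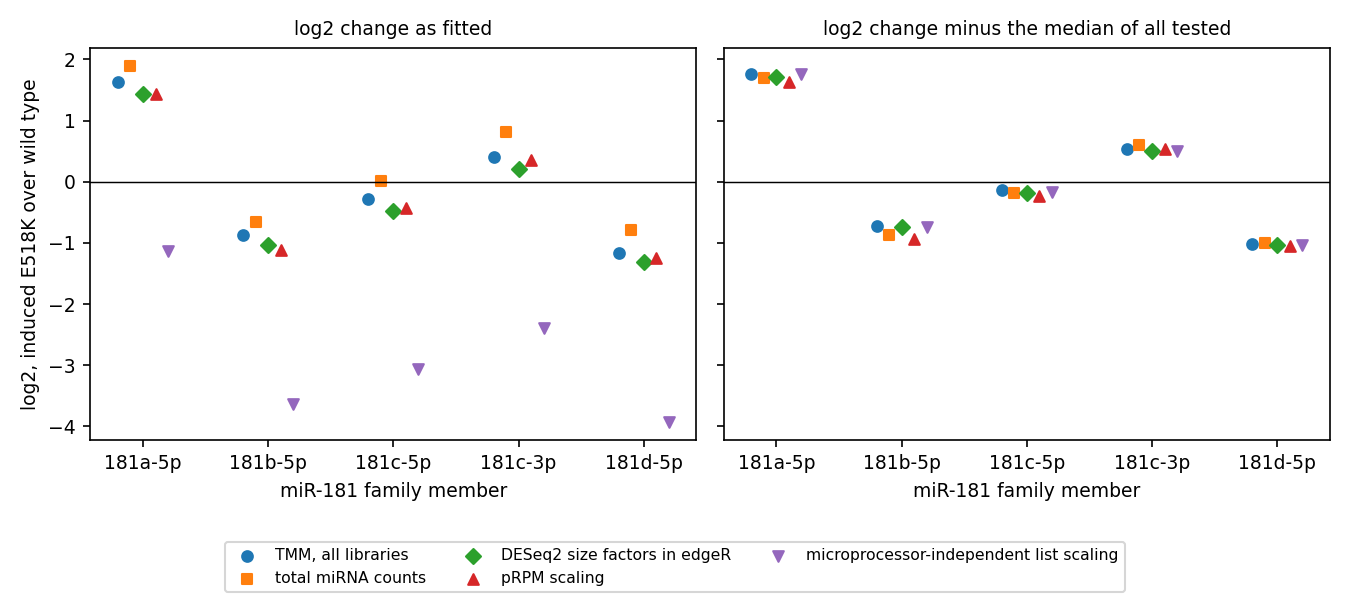
Log2 change of each member, induced E518K over induced wild type, under 5 scalings of the libraries (markers), as fitted on the left and minus the median of all tested miRNAs on the right. Fitted values spread widely, from 1.90 to −1.13 for miR-181a-5p. They draw together once the median is taken off because a scaling shifts all miRNAs by nearly the same amount.

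Ratios between members within a library need no scaling, and 3 of them were compared between induced E518K and induced wild type by a two-sided exact permutation test. With 3 libraries against 3 the smallest p this test can give is 0.1. miR-181b-5p over miR-181a-5p, neighbours on chromosomes 1 and 2, had log2 ratios of −2.98, −3.56 and −2.45 in E518K clones 8, 13 and 15, against −1.19, −0.04 and −0.26 in wild-type clones 10, 12 and 16. The means differed by −2.50 (exact p = 0.1, adjusted over the 3 ratios 0.1). miR-181a-5p outnumbered its neighbour in all 6 libraries, and by more in E518K. miR-181b-5p had only 22, 4 and 16 counts in the E518K clones, and the 4 counts of clone 13 were under the floor. Without clone 13 the means differed by −2.22. miR-181d-5p over miR-181c-5p, the pair on chromosome 8, averaged 2.77 ± 0.403 in E518K and 3.62 ± 0.236 in wild type (SD over 3 libraries each, exact p = 0.1, adjusted 0.1). miR-181c-3p over miR-181c-5p, the arms of the same hairpin, averaged 2.28 ± 0.359 in E518K and 1.61 ± 0.243 in wild type (exact p = 0.1, adjusted 0.1). None of the 3 ratios overlapped between the groups, where 64.5% of single tested miRNAs did not overlap either. No such share was taken for ratios, and these 3 were chosen with earlier results known.

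The KO was set against induced wild type to see which members need DGCR8. The chromosome 8 miRNAs, miR-181d-5p, miR-181c-3p and miR-181c-5p, were nearly gone in the KO, whereas miR-181a-5p and miR-181b-5p were higher there with TMM scaling and lower with the microprocessor-independent list. All 5 members were called, 3 lower and 2 higher, where 88.4% of all tested miRNAs were called, 30.0% higher and 58.4% lower. With the list as the scaling 26 of the 730 were higher and 536 lower, against 219 and 426 with TMM. The members' median log2 change was −5.18 with fitted values, against −3.54 over all tested miRNAs.

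miR-181d-5p had 2, 2 and 4 counts in the KO libraries, against 1458, 2909 and 4753 counts in wild-type clones 10, 12 and 16. In CPM these were 4.26, 6.0 and 12.2 in the KO and 715, 883 and 881 in wild type. The log2 change was −6.83 ± 0.58 SE (adjusted p = 1.3e-28). Taken on summed counts it was lower in the KO by a factor of 120 (95% counting interval 46.9 to 441).

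miR-181c-3p had 0 counts in all 3 KO libraries, against 397, 680 and 1139 counts in wild type, and was at least 12.5-fold lower in the KO (floor of 6 counts per library; adjusted p = 2.1e-21). miR-181c-5p had 0, 2 and 0 counts in the KO, against 119, 200 and 454 counts in wild type. It was lower in the KO by a factor of 40.7, with a 95% counting interval from 7.25 to 1610 (adjusted p = 2.7e-09), and without KO sample 2 it had 0 counts in the KO. The KO counts of all 3 chromosome 8 miRNAs were thus at or under the floor.

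miR-181a-5p had 81.0, 132 and 12.2 CPM in the KO, from 38, 44 and 4 counts, against 27.5, 21.9 and 33.7 CPM in wild type. Sample 3 was below all wild-type libraries and the other two were above them. The log2 change was 1.44 ± 0.50 SE (adjusted p = 0.0051). It no longer passed without KO sample 1 (0.62, adjusted p = 0.30), KO sample 2 (0.81, 0.15) or clone 12 of the wild type (0.42, 0.48).

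miR-181b-5p had 34.1, 48.0 and 79.3 CPM in the KO, from 16, 16 and 26 counts, against 11.8, 21.2 and 28.2 CPM in wild type. All KO libraries were above all wild-type libraries, where 84.9% of tested miRNAs did not overlap in level, with a log2 change of 1.36 ± 0.53 SE (adjusted p = 0.012). It no longer passed without KO sample 1 (0.92, adjusted p = 0.12) or 3 (0.97, 0.12), nor without clone 10 (1.10, 0.085) or clone 12 (0.56, 0.38) of the wild type. The 2 log2 changes, of miR-181a-5p and miR-181b-5p, turned to −0.47 and −0.59 with the authors' scaling, which did not pass, and to −3.72 and −3.90, which did, with the microprocessor-independent list. That list took 12.3% to 17.2% of the miRNA counts in KO libraries. Relative to the median of all tested miRNAs they were 4.51 to 5.02 and 4.33 to 4.93 above it under the 5 scalings. A scaling shifts that median by nearly as much as the members, so these narrow ranges follow largely from the subtraction.

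**Figure D3:**
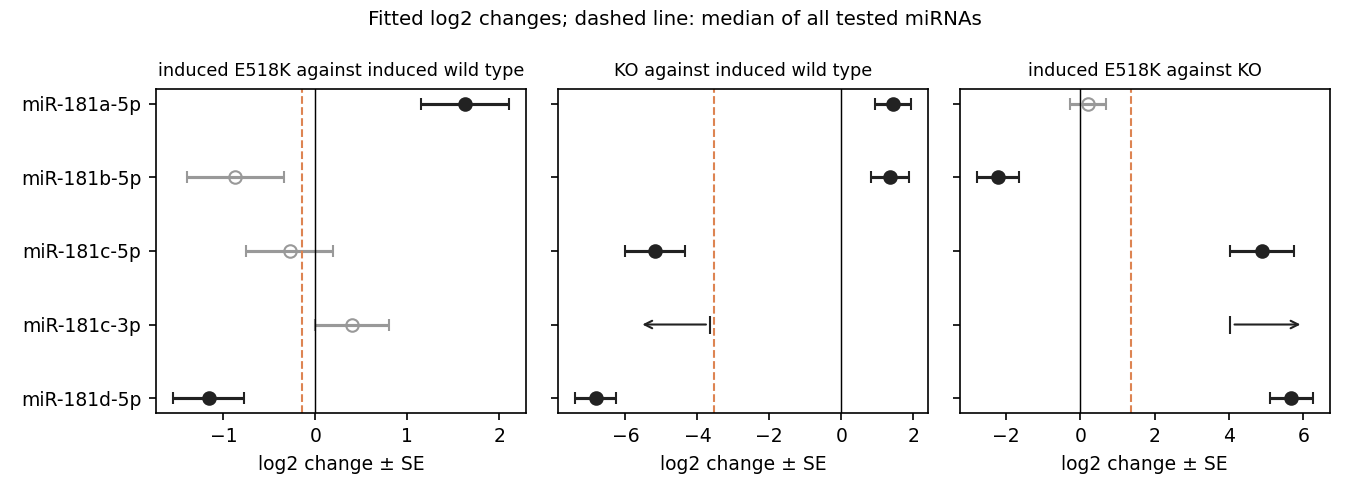
Log2 change ± SE of each member in 3 comparisons; filled points passed the test and open grey points did not. Arrows start at the smallest change that 0 counts of miR-181c-3p in the KO allow, 12.5-fold against wild type and 16.4-fold against E518K, and the dashed line is the median of all tested miRNAs.

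E518K cells were then set against the KO, to see how the family's levels differed between them. This comparison shares its libraries with the ones above. Whether the mutant protein itself made a difference between these clones was not tested. miR-181d-5p, miR-181c-3p and miR-181c-5p were higher in induced E518K, miR-181b-5p was lower and miR-181a-5p did not pass. With 4 of 5 members called, the background was 68.1% of all tested miRNAs, 41.9% higher and 26.2% lower, and the medians were 4.90 for the members and 1.35 for all. The split over all miRNAs was 306 higher and 191 lower with TMM, 250 and 249 with total counts, 380 and 61 with the authors' scaling and 412 and 30 with the list.

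miR-181d-5p had 343 to 389 CPM in E518K and 4.26 to 12.2 CPM in the KO (log2 change 5.68 ± 0.58 SE, adjusted p = 8.9e-21), a factor of 52.3 on summed counts (95% counting interval 20.4 to 193). miR-181c-3p was at least 16.4-fold higher in E518K (adjusted p = 2.6e-23). miR-181c-5p was higher by a factor of 32.8 (5.76 to 1310, adjusted p = 5.4e-08). None of these 3 overlapped with the KO, where 67.5% of all tested miRNAs did not.

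miR-181b-5p had 3.33 to 16.1 CPM in E518K and 34.1 to 79.3 CPM in the KO, with no overlap (log2 change −2.23 ± 0.57 SE, adjusted p = 0.00023). It did not pass with the authors' scaling (−0.53, adjusted p = 0.51) and turned to 0.26 with the microprocessor-independent list. miR-181a-5p had 48.2 to 118 CPM in E518K and 12.2 to 132 CPM in the KO (0.20 ± 0.49 SE, adjusted p = 0.73). It passed as higher in E518K with the authors' scaling (1.91) and with the list (2.59).

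The make-up of the family showed the same contrast in plain counts. The chromosome 8 miRNAs held 87.9% ± 4.16 of the family's counts in induced E518K, 7.19% ± 4.18 in the KO and 95.8% ± 0.735 in induced wild type (SD, n = 3 each). They held 21.2% in untreated E518K, of 33 counts, and 95.8% in untreated wild type, of 577. This grouping was chosen after the values were seen and is given without a test. In KO sample 3 the share of miR-181a-5p was 11.8%, against 67.9% and 68.8% in samples 1 and 2.

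**Figure D4:**
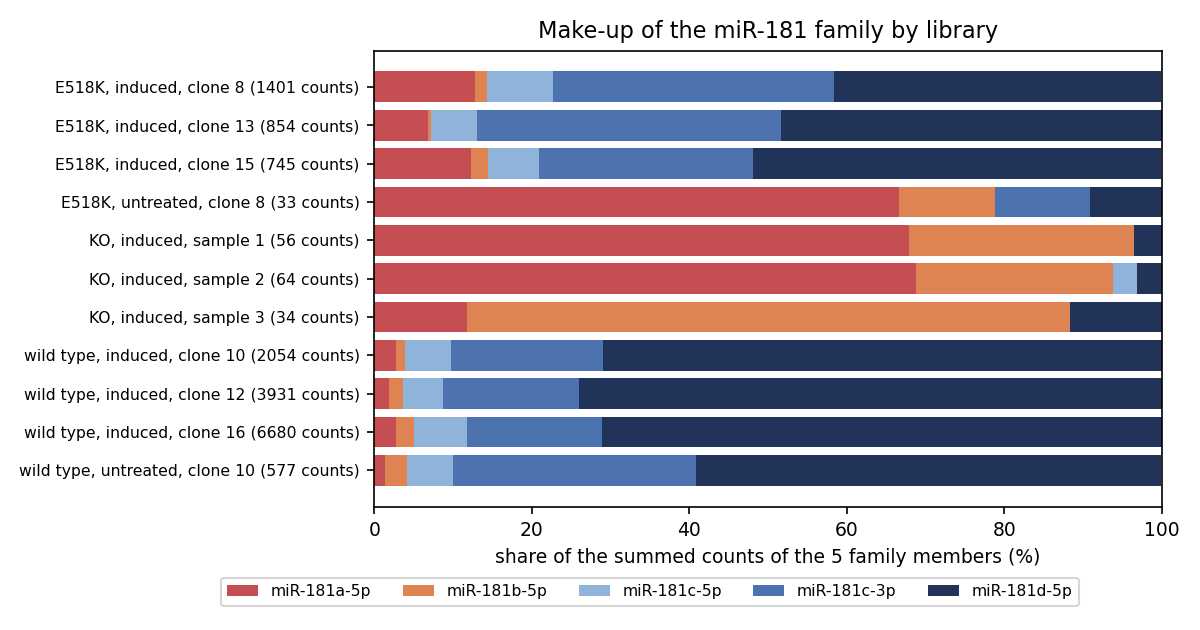
Share of the family's summed counts held by each member (%), in each of the 11 libraries, with the number of counts behind each bar. The blue parts are the chromosome 8 miRNAs, which hold 85.5% to 92.7% in induced E518K, 3.57% to 11.8% in the KO and 95% to 96.4% in induced wild type.

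As a whole the family was a small part of the miRNA pool. Its summed share was 0.0706% ± 0.0157 in induced E518K and 0.0791% ± 0.0291 in induced wild type (SD, n = 3 each; exact permutation p = 0.8, adjusted over 3 share comparisons 0.8). The difference changed sign without wild-type clone 16 or E518K clone 15. The share was 0.0284% ± 0.00927 in the KO, below every wild-type library and every E518K library (exact p = 0.1 for each, adjusted 0.15).

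The untreated libraries show the levels without doxycycline. Whether these came from the vector, the cells' own DGCR8 gene or the clone was not tested. Each such group had 1 library, which was assumed to vary like the others in the fit. In E518K, induction raised miR-181d-5p, miR-181c-3p and miR-181c-5p, 3 of 5 members, where 52.7% of all tested miRNAs were called, 28.4% higher and 24.4% lower. That split, 207 higher and 178 lower, was 140 and 194 with total counts, 306 and 56 with the authors' scaling, 389 and 4 with the list and 214 and 119 with DESeq2. Within clone 8, miR-181d-5p had 582 counts induced and 3 untreated, miR-181c-3p 500 and 4, and miR-181c-5p 117 and 0. The library totals were 1797240 and 264507. The log2 changes were 5.27 ± 0.92 SE for miR-181d-5p (adjusted p = 1.6e-07) and 4.39 ± 0.90 SE for miR-181c-3p (adjusted p = 8e-06). On summed counts these were factors of 29.2 (95% counting interval 8.04 to 241) and 21.8 (6.01 to 181). The untreated counts of 3 and 4 were both under the floor, so these sizes are no measured folds. miR-181c-5p was at least 2.91-fold higher (adjusted p = 0.00063). miR-181a-5p, with 118 CPM induced and 69.9 CPM untreated in clone 8, and miR-181b-5p, with 14.4 and 12.7, did not pass in the comparison of the groups (0.30 ± 0.73 and −0.17 ± 1.07, adjusted p = 0.73 and 0.92); miR-181a-5p passed with the authors' scaling (2.12, adjusted p = 0.043) and with the list (3.6).

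In wild type, 0 of 5 members passed by edgeR with TMM, and 0 at an unadjusted p under 0.05, where 34.8% of all tested miRNAs were called, 15.9% higher and 18.9% lower. The call of miR-181d-5p depended on the scaling: edgeR gave 0.73 ± 0.57 SE with TMM (adjusted p = 0.32) and 1.42 with DESeq2 size factors (adjusted p = 0.023), and DESeq2 gave 1.42 (adjusted p = 1.1e-06). With the list all 5 members passed as higher. Over all miRNAs the split was 116 higher and 138 lower with TMM, 182 and 89 with DESeq2 size factors, 183 and 70 with the authors' scaling, 483 and 12 with the list and 170 and 86 with DESeq2. In clone 10 miR-181d-5p had 715 CPM induced and 497 untreated, miR-181c-3p 195 and 259, and miR-181c-5p 58.4 and 49.6. miR-181a-5p had 27.5 induced and 11.7 untreated, and miR-181b-5p 11.8 and 23.3. A p that misses the threshold does not show that doxycycline changed nothing here. Effects of induction were also set against each other between E518K and wild type, a test added after the data were seen, which called 21.5% of tested miRNAs (17.4% higher and 4.11% lower; 127 and 30 miRNAs, against 56 and 36 with total counts), among them miR-181d-5p, miR-181c-3p and miR-181c-5p.

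**Figure D5:**
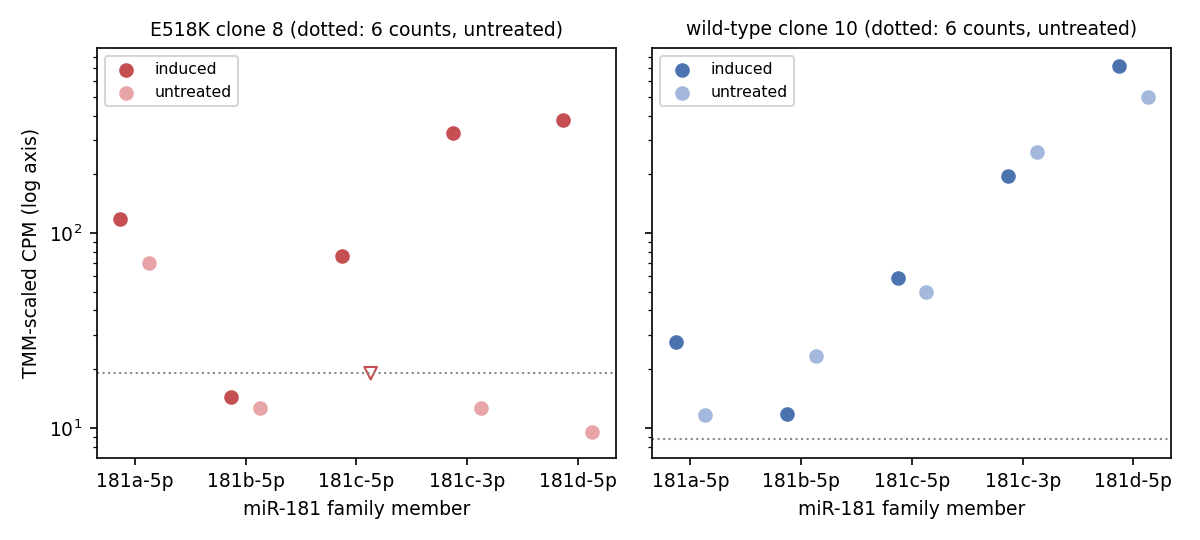
TMM-scaled CPM (log axis) of each member in the same clone with and without doxycycline, E518K clone 8 on the left and wild-type clone 10 on the right. The dotted line is the level of 6 counts in the untreated library, and the open triangle is a count of 0. The 3 chromosome 8 miRNAs lie at or under that line in untreated E518K and well above it in untreated wild type.

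Untreated wild type was also set against the KO. miR-181c-3p (at least 15.9-fold), miR-181d-5p (log2 change 6.10 ± 0.64 SE, adjusted p = 2.3e-19) and miR-181c-5p (a factor of 28.0, counting interval 4.39 to 1170) were higher in untreated wild type, and miR-181a-5p was lower (−2.68 ± 0.89 SE, adjusted p = 0.006). That is 4 of 5 members, where 56.7% of all tested miRNAs were called, 43.3% higher and 13.4% lower. The split of 316 higher and 98 lower was 209 and 215 with total counts, 336 and 34 with the authors' scaling and 401 and 13 with the list. The miR-181a-5p call was lost with the authors' scaling (−1.78, adjusted p = 0.12) and with the list (−0.71, 0.53), and that of miR-181c-5p with total counts (2.67, 0.054). In untreated E518K against the KO, 1 of 5 members was called, where 15.3% of all tested miRNAs were (15.2% higher and 0.137% lower; 111 and 1 miRNAs, against 68 and 1 with total counts). It was miR-181c-3p, on 4 counts in untreated E518K and 0 in the KO, both under the floor, so no fold is given. It did not pass with total counts, nor with the list, where miR-181b-5p was called lower instead (−2.79, adjusted p = 0.033). miR-181d-5p, with 3 counts in untreated E518K and 2 to 4 in the KO, was at its floor in both.

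The other arms of these hairpins, 5 miRNAs listed, were scarce, and 2 passed the filter. miR-181a-2-3p, which comes from the chromosome 2 hairpin alone, had 78.5, 54.9 and 34.2 CPM in the E518K clones, against 5.89, 5.46 and 14.4 CPM in the wild-type clones. It was higher in every E518K library than in any wild-type library (log2 change 2.65 ± 0.52 SE, adjusted p = 2.3e-06; 4.09 without wild-type clone 16 and −0.13 with the microprocessor-independent list). Of all tested miRNAs, 64.5% did not overlap between these groups. miR-181a-2-3p was called in the same direction as miR-181a-5p. The untreated libraries had 25.4 CPM in E518K and 32.1 in wild type. With TMM, miR-181a-2-3p was called lower on induction in wild type (−1.84 ± 0.73 SE) and did not pass in E518K (1.14 ± 0.88 SE). In the KO it had 8.53, 0 and 42.7 CPM (0.88 ± 0.63 SE against wild type, adjusted p = 0.18). It passed against wild type without KO sample 2 (1.43, adjusted p = 0.032) or wild-type clone 16 (1.74, 0.022) and with total counts (2.33), and turned to −0.86 without KO sample 3. In induced E518K it was higher than in the KO (1.77 ± 0.60 SE, adjusted p = 0.006), a call lost without KO sample 2 (1.22, 0.076), with total counts (0.61, 0.44), DESeq2 size factors (1.51, 0.067) and DESeq2 (1.46, 0.15). Without KO sample 3 it was 3.51.

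miR-181a-1-3p, which comes from the chromosome 1 hairpin alone, had 10, 0 and 0 counts in E518K, 4, 4 and 10 in the KO and 0, 2 and 0 in wild type. It was called higher in the KO than in wild type (5.91 ± 1.19 SE, adjusted p = 1.6e-06), with the size resting on 2 counts, and did not pass with the list (1.08, adjusted p = 0.53). Its call in E518K against wild type (3.20 ± 1.24 SE, adjusted p = 0.018) rested on clone 8 and turned to −1.73 without it; it also failed without wild-type clone 10 (2.92, 0.061), with DESeq2 size factors (3.06, 0.052), with DESeq2 (3.26, 0.14), with the list (0.80, 0.68) and in a fit of only these 2 groups (3.25, 0.053). Against the KO it was lower in E518K (−2.71 ± 1.02 SE, adjusted p = 0.013), and the call was lost without KO sample 1 (−2.41, adjusted p = 0.079) or 3 (−2.02, 0.17), and without E518K clone 13 (−2.15, 0.051) or 15 (−2.23, 0.057). It was also lost with the authors' scaling (−1.0, 0.47), the list (−0.28, 0.89), DESeq2 (−3.19, 0.091) and a fit of only these 2 groups (−2.19, 0.072). Without E518K clone 8 its value was −7.65. miR-181b-1-3p and miR-181b-2-3p had at most 4 counts in any library. miR-181d-3p had 2, 2 and 2 counts in E518K, none in the KO and 0, 14 and 24 in wild type.

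The 3 miRNAs outside the family whose pattern was most like that of miR-181d-5p over the 11 libraries were miR-200a-5p, miR-92b-3p and miR-26a-2-3p. Their root mean square differences from it, on centred log2(CPM + 1), were 0.393, 0.477 and 0.507, where the median tested miRNA had 2.36. miR-200a-5p averaged 37.8 ± 7.55 CPM in induced E518K and 88.6 ± 18.4 in wild-type cells with doxycycline, miR-92b-3p 35.9 ± 8.71 and 132 ± 20.7, and miR-26a-2-3p 35.2 ± 10.4 and 55.3 ± 13.6 (SD, n = 3 each). All 3 had 0 counts in the KO and in untreated E518K, and 46.6, 88.9 and 32.1 CPM in untreated wild type. With total counts as library sizes, an alternative added after the data were seen, 2 of the 3 remained the nearest.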

How the data were processed

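RNA came from feeder-free cells in 2i and LIF medium, and libraries from the NEBNext Multiplex Small RNA kit, per the labels' protocols. The authors deposited raw read counts per mature miRNA for 11 libraries, and a second table of the miRNAs as scaled RPM values (pRPM). STAR, bedtools and GRCm38.p6 are named, without roles, in the submitters' processing notes; the counting rule and strand were not given in the sources used here. The deposited pRPM values gave whole reads in 100% of cases (within 0.01 reads) and those reads equalled the counts in 100%, so a count test on them, with 464 calls for induced E518K against induced wild type, is the test on the counts; they served only as a scaling. The pRPM totals were the same for all libraries of a group: 683476 in induced E518K, 85006 in the KO and 938495 in induced wild type. The authors' scaling thus sets 1 total per group, which fixes the shift between groups. A file labelled as piRNA counts was identical to the pRPM file and was not used here. Of all counts from 1 to 40, 90.3% were even, as if a small RNA usually added 2 counts; the floor of 3 small RNAs was set at 6 counts per library, and counting intervals (95%, exact) were taken on halved counts. Of the 49 member counts above 0, 38 were even, and the odd ones were all of miR-181c-5p, miR-181c-3p or miR-181d-5p. Intervals and floors cover counting error only.

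Tests used edgeR 4.0.16 in R 4.3.3 (robust quasi-likelihood fit of all 11 libraries in 5 groups, TMM, filterByExpr with a minimum count of 10 and minimum total of 15, Benjamini-Hochberg over 730 miRNAs, threshold 0.05), checked on simulated data. The simulation raised and lowered equal numbers of miRNAs. It could not show whether TMM holds where most miRNAs change in the same direction. Fits with DESeq2 1.42.0, other scalings, no filter, only the compared groups, and each library left out were alternatives. Single ratios and shares used exact permutation tests (scipy 1.17.1), with 1 added to counts in ratios. Hairpins were folded with RNAfold 2.7.2. The members, lists and tests were chosen with earlier results of these data known. Named miRNAs were the members, the other arms of their hairpins and the 3 with the most similar pattern. No libraries of a group agreed within sampling noise (24.3 to 557 chi-square units for each degree of freedom).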

Additional observations from a re-analysis of the deposited data

Results flagged for a closer look

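Induction by doxycycline had a different effect in E518K than in wild type for 4 miRNAs of the miR-181 hairpins, by the test of the difference itself (edgeR's quasi-likelihood test of the interaction, called for 21.5% of all 730 tested miRNAs). The log2 change on induction was larger in E518K than in wild type by 4.74 ± 1.04 SE for miR-181c-3p (adjusted p = 0.00013) and by 4.54 ± 1.05 SE for miR-181d-5p (adjusted p = 3e-04). For miR-181c-5p the fitted difference was 8.94 ± 2.91 SE (adjusted p = 0.015), a size that depends on the 0 counts in untreated E518K and is no measured fold; it did not pass with total counts as library sizes (adjusted p = 0.13). For miR-181a-2-3p, whose arm marks the chromosome 2 hairpin, the difference was 2.98 ± 1.16 SE (adjusted p = 0.048). That call was lost with total counts, DESeq2 size factors, DESeq2 or no filter, and when any of E518K clones 8 and 15 or wild-type clones 10 and 12 was left out (adjusted p from 0.056 to 0.37 in these cases). For miR-181a-2-3p the induction in E518K was 1.14 ± 0.88 SE and did not pass. In wild type it was −1.84 ± 0.73 SE and was called lower, so the difference includes a fall in wild type. The test of the difference was added after the data were seen. Each untreated group had 1 library, so the test assumes that it varies like the others. The untreated E518K library had 4 counts of miR-181c-3p and 3 of miR-181d-5p, both under the floor. The differences of 4.74 and 4.54 depend on these low counts, so their sizes are no measured folds either.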

How the results depend on the processing

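No paired analysis was possible because the groups compared share at most 1 clone number. Over the single miRNAs named, 373 of the alternative values kept their direction and their side of the threshold, 41 no longer passed, 17 newly passed and 43 changed sign. Most changes of sign were of values that had not passed; the cause was not tested. The number of members called in induced E518K against induced wild type was 1 with total counts, 5 with the microprocessor-independent list and 1 with DESeq2, against 2; the list called 498 of all 730 miRNAs lower. In the KO against induced wild type it was 3 with the pRPM scaling and 3 to 5 with a library left out, against 5. Induction in wild type gave 1 with DESeq2 size factors, 5 with the list (which called 483 of 730 higher) and 1 with DESeq2, against 0. Induction in E518K gave 4 with pRPM and 5 with the list (389 of 730 higher), against 3. Untreated wild type against the KO gave 3 with pRPM and 3 with the list, against 4. Untreated E518K against the KO gave 0 with total counts, against 1, and with the list 1 that was another member.

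With the list as scaling, signs changed to −1.13 (miR-181a-5p), −2.39 (miR-181c-3p) and −0.13 (miR-181a-2-3p) in E518K against wild type, to −3.72 (miR-181a-5p), −3.90 (miR-181b-5p) and −4.34 (miR-181a-2-3p) in the KO against wild type, and to 0.26 for miR-181b-5p in E518K against the KO. They changed to 3.02 (miR-181b-5p) and 2.85 (miR-181c-3p) on induction in wild type, 3.05 (miR-181b-5p) on induction in E518K and 0.87 (miR-181b-5p) in untreated wild type against the KO. The pRPM scaling gave −0.47 (miR-181a-5p), −0.59 (miR-181b-5p) and −1.11 (miR-181a-2-3p) in the KO against wild type, 0.84 (miR-181b-5p) and 0.61 (miR-181c-3p) on induction in wild type and 1.59 (miR-181b-5p) on induction in E518K. Total counts gave 0.02 for miR-181c-5p in E518K against wild type, −1.09 for miR-181a-5p in E518K against the KO, 0.39 (miR-181b-5p) and 0.16 (miR-181c-3p) on induction in wild type and −0.18 (miR-181a-5p) on induction in E518K. DESeq2 size factors and DESeq2 both gave −0.06 for miR-181a-5p in E518K against the KO, 0.48 (miR-181b-5p) and 0.36 (miR-181c-3p) on induction in wild type and 0.25 (miR-181b-5p) on induction in E518K.

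With a library left out, signs changed within these ranges. In E518K against wild type they were −1.17 to 0.31 for miR-181b-5p, −0.60 to 0.74 for miR-181c-5p and −1.73 to 4.81 for miR-181a-1-3p, and the family's share differed by −0.0178 to 0.00826 percentage points. In the KO against wild type miR-181a-2-3p ran from −0.86 to 1.74, and in E518K against the KO miR-181a-5p from −0.29 to 1.03. On induction in wild type miR-181b-5p ran from −0.52 to 0.32 and miR-181c-3p from −0.39 to 0.15, and on induction in E518K miR-181b-5p from −0.47 to 0.26. In untreated E518K against the KO miR-181a-5p ran from −0.60 to 0.57. The KO and untreated E518K libraries, with the fewest counts, limit every statement on low members there.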
